A study of Mus musculus with 6 samples.

Results

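The m6A machinery was followed here through 10 genes of the footprint count table, chosen by name from the 56747 genes it holds: the writers *Mettl3*, *Mettl14* and *Wtap*, the readers *Ythdf1*, *Ythdf2*, *Ythdf3*, *Ythdc1* and *Ythdc2*, and the erasers *Alkbh5* and *Fto*. The islets came from male C57BL/6J mice of 6 to 8 weeks and were exposed over 2 h to glucose at 2.5 mM (low glucose) or 25 mM (high glucose), with 3 libraries of each condition. All of them had passed through a glucose-free medium beforehand and received cycloheximide, which halts ribosomes on the mRNA, for the last 15 minutes. Each library was made from 500 to 600 islets pooled from several mice, and the islets of a mouse were divided between both conditions. In Ribo-seq the mRNA fragments shielded by ribosomes, the footprints, are counted for each gene, so that a count follows both the amount of an mRNA and how many ribosomes it carries.

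N6-methyladenosine (m6A) is the most common modification inside eukaryotic mRNA. It is laid down in the nucleus by a complex in which METTL3 carries the catalytic site, METTL14 binds the substrate RNA and WTAP holds the enzyme in nuclear speckles. Proteins with a YTH domain read the mark: YTHDC1 in the nucleus, where it acts in splicing and export, and YTHDF1, YTHDF2 and YTHDF3 in the cytoplasm, where they act in translation and decay of methylated mRNAs. The dioxygenases ALKBH5 and FTO can remove it. Loss of *Mettl3* or *Mettl14* from mouse beta cells is known to impair insulin secretion.

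Acute high glucose moved the m6A genes in both directions. Of the 10, all of which had enough counts to be tested, *Ythdf2* and *Ythdf3* gained footprints in high glucose, *Wtap*, *Alkbh5* and *Ythdc1* lost them, and the other 5 failed the threshold. Over all 13100 genes tested, 22.2% passed at an adjusted p under 0.05 from edgeR's quasi-likelihood test with Benjamini-Hochberg adjustment, 12.1% as higher and 10.2% as lower. The median log2 fold change (log2FC, high against low glucose) was -0.10 over the m6A genes and -0.012 over all genes tested. In 6 of the 10 m6A genes the libraries of the conditions did not overlap, 3 of them with every high-glucose library on top and 3 with every low-glucose library on top, where 37.5% of all genes tested were separated in this way (19.5% and 18%). The rule of the study asked for a change beyond 1.5-fold together with p under 0.05 before adjustment. Here it was applied to edgeR's values, where the study used DESeq2. *Wtap* alone among the 10 met it, as lower, where 15.2% of all genes tested did (6.6% higher and 8.58% lower).

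The high-glucose libraries were deeper, with totals of 16322162 to 20692579 against 9242549 to 12175699 counts (medians 1.47 times apart). The TMM factors ran from 0.980 to 0.988 in high and from 1.01 to 1.02 in low glucose, so they differed by condition. The median log2FC over all genes tested was -0.012 with these factors and -0.059 with library totals alone. Levels below are depth-normalised counts (CPM) after that scaling, with the SD over 3 libraries. The islets hold several cell types, and beta cell markers, 7 of 10 of them higher and 2 lower, took 13.5% to 15.0% of counts in low and 15.9% to 17.3% in high glucose. The lower ones were *Mafa* (log2FC -0.56) and *Iapp* (-0.093). Most counts of this list were of *Ins2*, which rose from a mean of 91405 to 117004 CPM (log2FC 0.36). Markers of other cells moved the other way: 4 of 5 alpha cell markers were lower (5.91% to 6.35% of counts in low and 4.59% to 4.97% in high glucose), and so were all 10 acinar markers tested of a list of 12 (0.0714% to 0.0792% and 0.0305% to 0.0324%), with *Ptf1a* at 0 counts in every library. Of 5 endothelial and 5 stellate markers, 2 each were lower, as were 3 of 5 delta and PP cell markers, while none of 5 macrophage markers passed and 1 of 4 duct markers tested was higher. The m6A genes are broadly expressed across cell types. In such bulk counts fewer cells of a type cannot be told apart from fewer footprints per cell, and the part of these marker shifts in the m6A results was not tested.

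The promoters of the m6A genes that passed the test are shown for their regulatory letters, from RefSeq on build GRCm38.p6. Of the 10 genes, 7 matched an entry, and *Mettl14*, *Ythdf3* and *Ythdc2* did not. Each line gives the 250 bases before the most upstream annotated start, 5′ to 3′ on the gene's strand, and capitals mark every match, on either strand, to the E-box CACGTG, the CRE half-site TGACG, the ATF4-type core TGATGNAA, the CCAAT box or the GC box GGGCGG.
Ythdf2 (chr4:132212257-132212506, minus strand): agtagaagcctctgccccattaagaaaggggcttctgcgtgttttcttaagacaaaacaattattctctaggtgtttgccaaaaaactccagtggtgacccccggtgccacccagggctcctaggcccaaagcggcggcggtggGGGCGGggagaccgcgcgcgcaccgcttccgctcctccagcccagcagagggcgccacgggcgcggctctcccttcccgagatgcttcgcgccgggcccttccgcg
Wtap (chr17:12992544-12992793, minus strand): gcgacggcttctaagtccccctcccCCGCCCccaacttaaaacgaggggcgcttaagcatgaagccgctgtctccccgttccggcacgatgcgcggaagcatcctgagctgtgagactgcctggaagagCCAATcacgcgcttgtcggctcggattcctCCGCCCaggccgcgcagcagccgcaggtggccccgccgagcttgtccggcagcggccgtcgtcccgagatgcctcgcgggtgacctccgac
Alkbh5 (chr11:60537433-60537682, plus strand): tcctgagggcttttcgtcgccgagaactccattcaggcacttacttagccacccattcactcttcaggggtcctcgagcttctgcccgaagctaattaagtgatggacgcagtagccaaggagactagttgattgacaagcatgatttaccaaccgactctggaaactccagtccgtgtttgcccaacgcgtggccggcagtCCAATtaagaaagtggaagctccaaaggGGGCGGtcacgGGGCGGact
Ythdc1 (chr5:86804016-86804265, plus strand): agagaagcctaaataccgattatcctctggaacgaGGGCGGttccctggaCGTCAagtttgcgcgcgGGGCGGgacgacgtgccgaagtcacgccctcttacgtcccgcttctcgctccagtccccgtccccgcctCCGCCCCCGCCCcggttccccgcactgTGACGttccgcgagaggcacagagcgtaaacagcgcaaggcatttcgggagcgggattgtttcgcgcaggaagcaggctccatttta
*Ythdf2* held 1 GC box and no other match, *Wtap* 2 GC boxes and 1 CCAAT box, *Alkbh5* 2 GC boxes and 1 CCAAT box, and *Ythdc1* 4 GC boxes, a pair of them end to end, and 2 CRE half-sites. Among 32851 RefSeq promoter windows of this length, 32.7% held a GC box, 33.8% a CCAAT box, 17.8% a CRE half-site, 6.02% the E-box and 3.45% the ATF4-type core. *Ythdf1*, a relative of *Ythdf2*, differed from it in this window by an E-box, a CRE half-site, a CCAAT box and 2 more GC boxes. The match to letters is a description and no evidence of binding.

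The mRNAs of ribosomal proteins and elongation factors open with a C and a run of pyrimidines, the 5′TOP element through which mTORC1 controls their translation. The first 20 bases of the annotated transcripts are given for the same 4 genes, with the run of pyrimidines from the first base in capitals.
Ythdf2: Tgggtcagcgactgtgagag
Wtap: CTCgcgggcccgcccttctc
Alkbh5: gggttgtggcgattcccgag
Ythdc1: gcgccgcccggcgtcgccat
At the most upstream annotated start, none of the 7 matched genes began with a C and at least 5 pyrimidines in a row. The longest run among them was 3, in *Wtap*, which has 3 entries, and its other starts were not checked. Of all RefSeq windows, which can hold several starts of a gene, 2.51% began in this way. With so small a share, finding none among 7 genes is no evidence on how these mRNAs are translated. Annotated starts may differ from those used in islets.

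Among the writers, only *Wtap* (ENSMUSG00000060475, chromosome 17), the subunit that anchors the methyltransferase, passed the test, and it fell. Its libraries had 56.8, 49.8 and 46.9 CPM in low glucose and 33.8, 22.3 and 29.4 CPM in high glucose, from 537, 582 and 579 counts against 545, 372 and 597. Every low-glucose library lay above every high-glucose library. The means were 51.2 ± 5.07 and 28.5 ± 5.83 CPM (n = 3 each, SD; log2FC = -0.84, SE 0.15, edgeR adjusted p = 2.3e-04), a fall to 0.557 of the low-glucose value with a 95% interval of 0.449 to 0.692. Of the m6A genes *Wtap* had the lowest log2FC, and 8.81% of all genes tested had a lower one. The raw counts of high-glucose replicates 1 and 3 lay near those of low glucose although these libraries are deeper, and that of replicate 2 lay below them. The call held without any 1 library (log2FC -0.98 to -0.69, highest edgeR adjusted p 0.0032).

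The catalytic subunit *Mettl3* (ENSMUSG00000022160, chromosome 14) did not follow *Wtap*. It had 35.9, 42.3 and 28.9 CPM in low and 38.0, 42.9 and 39.9 CPM in high glucose (log2FC = 0.17, SE 0.15, edgeR adjusted p = 0.44), and the conditions overlapped. The 95% interval of its fold change, 0.915 to 1.39, left out a fall of the size seen for *Wtap*. The gene overlaps *Tox4* on the opposite strand in the deposited annotation, and whether counting used strand is not given in the sources used here. *Mettl14* (ENSMUSG00000028114, chromosome 3), the RNA-binding partner, had the fewest counts of the 10 genes (142 to 332 a library) and a wide spread, with 11.5 to 21.9 CPM in low and 13.6 to 17.5 CPM in high glucose (log2FC = -0.10, SE 0.22, edgeR adjusted p = 0.81). Its interval, 0.674-fold to 1.29-fold, was too wide to tell a small rise from a small fall.

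**Figure D1:**
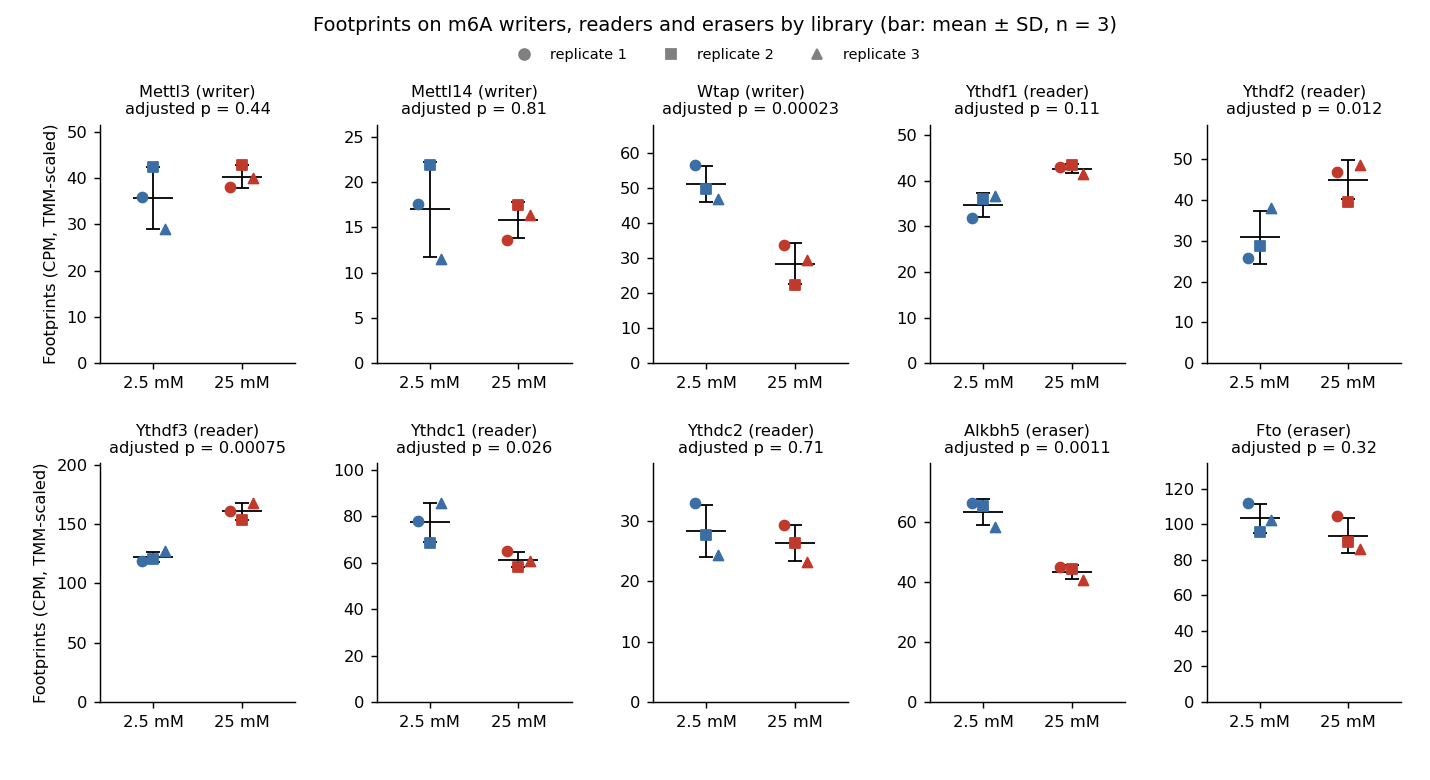
Footprints on the 10 m6A genes in each library, in CPM after TMM scaling on linear axes that start at 0, with low glucose (2.5 mM) in blue and high glucose (25 mM) in red. Symbols stand for replicates and black bars for mean ± SD of 3 libraries. The *Wtap* libraries lie at 46.9 CPM or more in low and at 33.8 CPM or less in high glucose, while those of *Mettl3* overlap.

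Of the 3 YTHDF readers, *Ythdf3* and *Ythdf2* passed the test and rose. *Ythdf3* (ENSMUSG00000047213, chromosome 3) had the most footprints of the 10 genes and the smallest SE of log2FC, with 118, 121 and 127 CPM in low and 161, 153 and 167 CPM in high glucose. The conditions were far apart for their spread, with means of 122 ± 4.50 and 160.5 ± 7.23 CPM (n = 3 each, SD; log2FC = 0.39, SE 0.079, edgeR adjusted p = 7.5e-04), a rise of 1.31-fold with a 95% interval of 1.17 to 1.47. YTHDF3 is known in human cells to work with the other 2 YTHDF proteins on shared mRNAs. The call held without any 1 library (highest edgeR adjusted p 0.0089).

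*Ythdf2* (ENSMUSG00000040025, chromosome 4), whose human protein recruits the CCR4-NOT deadenylase to methylated mRNAs, had the largest rise among the m6A genes. It had 25.7, 28.8 and 38.1 CPM in low and 46.8, 39.6 and 48.7 CPM in high glucose. The groups did not overlap, but low-glucose replicate 3 and high-glucose replicate 2 came within 1.45 CPM of each other. The means were 30.9 ± 6.46 and 45.0 ± 4.80 CPM (n = 3 each, SD; log2FC = 0.54, SE 0.15, edgeR adjusted p = 0.012), or 1.45-fold with an interval of 1.17 to 1.81, and 88.1% of all genes tested had a lower log2FC. Leaving out low-glucose replicate 1 or 2, or replicate 1 or 3 of high glucose, ended the call (log2FC 0.42 to 0.51, edgeR adjusted p 0.050 to 0.069).

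*Ythdf1* (ENSMUSG00000038848, chromosome 2), known in human cells to promote translation of methylated mRNAs, did not pass the adjusted threshold. Its 31.7, 35.9 and 36.6 CPM in low glucose all lay under its 42.9, 43.5 and 41.5 CPM in high glucose (log2FC = 0.29, SE 0.13, edgeR unadjusted p = 0.034, adjusted p = 0.11). The 3 YTHDF genes thus had a log2FC of 0.29 to 0.54, and the 95% interval of each lay above 0. Whether they differ from each other could not be decided with 3 libraries a condition: the count ratios *Ythdf1*/*Ythdf2*, *Ythdf3*/*Ythdf2* and *Ythdf1*/*Ythdf3* within libraries overlapped between the conditions (exact two-sided permutation p = 0.20, 0.40 and 0.20, where the smallest possible is 0.10). Between libraries of the same replicate number, *Ythdf1*/*Ythdf2* was lower in high glucose in all 3 (log2 change -0.43, -0.18 and -0.17), as was *Ythdf1*/*Ythdf3* (-0.0083, -0.067 and -0.22), and *Ythdf3*/*Ythdf2* in 2 of 3.

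The nuclear reader *Ythdc1* (ENSMUSG00000035851, chromosome 5) fell. It had 77.9, 68.7 and 85.7 CPM in low and 64.9, 58.4 and 60.9 CPM in high glucose. All low-glucose libraries were higher, by as little as 3.79 CPM between the nearest, and the means were 77.4 ± 8.50 and 61.4 ± 3.32 CPM (n = 3 each, SD; log2FC = -0.33, SE 0.11, edgeR adjusted p = 0.026). Leaving out low-glucose replicate 3, or replicate 2 or 3 of high glucose, ended the call (edgeR adjusted p 0.085 to 0.15). *Ythdc2* (ENSMUSG00000034653, chromosome 18), a helicase needed in mouse germ cells for meiosis, had 24.4 to 32.9 CPM in low and 23.2 to 29.2 CPM in high glucose (log2FC = -0.11, SE 0.16, edgeR adjusted p = 0.71), with a 95% interval of 0.735-fold to 1.18-fold.

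Of the erasers, *Alkbh5* (ENSMUSG00000042650, chromosome 11) fell. Its libraries had 66.2, 65.4 and 58.4 CPM in low and 44.9, 44.4 and 40.7 CPM in high glucose, so the lowest low-glucose library stood 13.5 CPM above the highest high-glucose library. The means were 63.3 ± 4.31 and 43.3 ± 2.29 CPM (n = 3 each, SD; log2FC = -0.55, SE 0.11, edgeR adjusted p = 0.0011), a fall to 0.685 of the low-glucose value (95% interval 0.582 to 0.806). The call held without any 1 library (log2FC -0.60 to -0.50, highest edgeR adjusted p 0.012). ALKBH5 is a nuclear enzyme that takes the methyl group off m6A directly.

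*Fto* (ENSMUSG00000055932, chromosome 8), which also removes m6Am next to the cap, had 112, 95.5 and 103 CPM in low and 105, 89.9 and 86.1 CPM in high glucose. Its conditions overlapped and it did not pass (log2FC = -0.14, SE 0.097, edgeR adjusted p = 0.32, 95% interval 0.788-fold to 1.04-fold). The gene overlaps 8 others in the deposited annotation, which together took few counts, at most 8 each over all 6 libraries.

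Ratios of 2 genes within a library do not depend on how libraries are scaled, and 8 pairs that share a complex, a family or a reaction were compared. *Wtap*/*Mettl3* was 1.58, 1.18 and 1.62 in low and 0.891, 0.519 and 0.737 in high glucose. Footprints on *Wtap* thus outnumbered those on *Mettl3* in every low-glucose library and were outnumbered in every high-glucose library, and the ratio changed to 0.483 of its low-glucose value (exact two-sided permutation p = 0.10, the smallest that 3 against 3 libraries allow, and 0.32 adjusted over 8 ratios). These counts are not scaled by gene length. Per kilobase, *Wtap* lay below *Mettl3* in low-glucose replicate 2 (7.97 against 8.33 CPM). *Fto*/*Alkbh5* was 1.69, 1.46 and 1.76 in low and 2.33, 2.02 and 2.12 in high glucose, 1.32 times as high, again with no overlap and the same p of 0.10 from the exact permutation test. The other 6 ratios overlapped (exact permutation p 0.20 to 0.40), among them *Wtap*/*Mettl14*, which was lower in high glucose in all 3 libraries of the same replicate number (log2 change -0.38, -0.84 and -1.18). *Mettl3*/*Mettl14*, the subunits of the catalytic core, was 2.04, 1.93 and 2.51 in low and 2.79, 2.46 and 2.44 in high glucose.

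**Figure D2:**
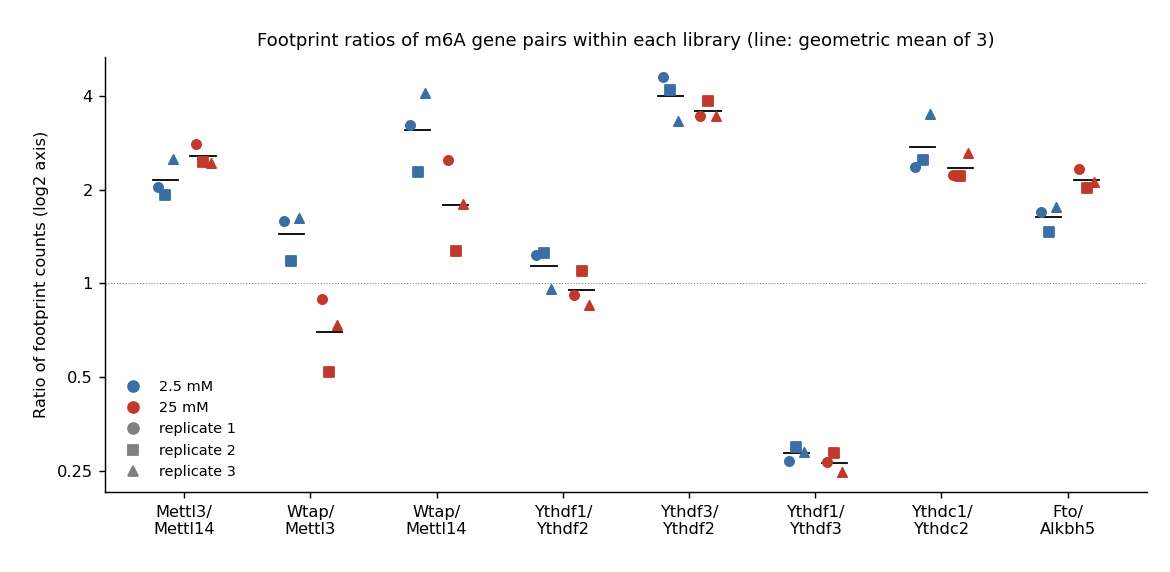
Ratio of the footprint counts of 2 m6A genes within each library, on a log2 axis, with low glucose (2.5 mM) in blue, high glucose (25 mM) in red, symbols for replicates and a line at the geometric mean of 3 libraries. *Wtap*/*Mettl3* lies above 1 in each low-glucose library (1.18 to 1.62) and below 1 in each high-glucose library (0.519 to 0.891), and *Fto*/*Alkbh5* is separated the other way.

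Summed by role, the writers took 0.0106% ± 0.00149 of all counts in low and 0.00832% ± 0.000167 in high glucose (SD, n = 3 each), without overlap. The readers took 0.0298% ± 0.00158 and 0.0330% ± 0.00132, overlapping, and the erasers 0.0169% ± 0.00110 and 0.0135% ± 0.00119, without overlap. All 10 genes together took 0.0573% ± 0.00129 and 0.0548% ± 0.00223, which overlapped. These shares are of unscaled library totals and are given without a test. Among the writers only *Wtap* passed the test by gene, while *Mettl3* (log2FC 0.17) and *Mettl14* (-0.10) did not. Among the erasers *Alkbh5* passed and *Fto* (-0.14) did not. A lower sum is thus not a fall of every gene in the role.

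Levels of different genes were compared per kilobase of the gene length in the deposited table, whose basis is not stated and which may include untranslated parts. These lengths ran from 3316 bases (*Ythdf1*) to 13651 bases (*Ythdc1*). The places below hold for this length alone, and an order by coding length could differ. In low glucose *Ythdf3* stood first with 22.8 ± 0.839 CPM per kilobase, above every library of the next gene. *Alkbh5* (10.6 ± 0.719) and *Ythdf1* (10.5 ± 0.793) came next, overlapping each other and clear of those below. They were followed by *Wtap* (8.19 ± 0.812), *Fto* (7.93 ± 0.631), *Mettl3* (7.03 ± 1.31), *Ythdf2* (6.75 ± 1.41) and *Ythdc1* (5.67 ± 0.622), each overlapping its neighbour, and, clear of these, by *Ythdc2* (3.19 ± 0.484) and *Mettl14* (2.29 ± 0.704), which overlapped. In high glucose *Ythdf3* (29.9 ± 1.35 CPM per kilobase), *Ythdf1* (12.9 ± 0.319) and *Ythdf2* (9.84 ± 1.05) held the first 3 places without overlap among neighbours. *Ythdf2* had moved up from the seventh place, *Alkbh5* (7.24 ± 0.382) had moved from the second place to the fifth, and *Wtap* (4.56 ± 0.932) from the fourth to the seventh, but in high glucose *Alkbh5* overlapped *Mettl3* above it and *Fto* below it, and *Wtap* overlapped *Ythdc1* below it. *Mettl14* (2.13 ± 0.270) was last in both conditions.

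The wider pathway was described with 30 further genes in 5 lists, of which 28 had enough counts to be tested. High glucose raised 7 of these, lowered 1 and left 20 without a call, beside 12.1% higher and 10.2% lower over all genes tested, and their median log2FC was 0.16. The members named below are those that passed, unless stated otherwise.

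None of the other subunits of the writer complex passed the test as lower beside *Wtap*. Of 5 such genes 2 rose and the others gave no call, with a median log2FC of 0.23. The lowest was *Cbll1* (log2FC -0.12), whose 95% interval of 0.683-fold to 1.24-fold leaves a fall possible. *Virma*, the large scaffold of the complex, had 145, 160 and 149 CPM in low and 188, 170 and 175 CPM in high glucose (log2FC = 0.23, SE 0.077, edgeR adjusted p = 0.032). *Rbm15*, which binds RNA and brings the complex to its targets, had 27.2, 29.7 and 33.0 CPM in low and 43.7, 40.5 and 36.1 CPM in high glucose (log2FC = 0.42, SE 0.14, edgeR adjusted p = 0.036). In both genes all high-glucose libraries lay above all low-glucose libraries. Both calls were weak: that of *Virma* ended without replicate 1 or 3 of either condition, and that of *Rbm15* without replicate 1 or 2 of either condition, and both under upper-quartile factors or library totals alone (edgeR adjusted p 0.059 to 0.16).

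The 6 other m6A and m6Am methyltransferase genes and partners, among them *Mettl16* and the ribosomal RNA enzymes *Mettl5* and *Zcchc4*, all had a negative log2FC, with a median of -0.35, but only *Mettl4*, which acts on small nuclear RNA, passed the test. It had 13.8, 11.6 and 8.19 CPM in low and 6.64, 6.94 and 5.08 CPM in high glucose (log2FC = -0.85, SE 0.28, edgeR adjusted p = 0.032). The call rested on few counts (101 to 136 a library) and ended without replicate 1 or 2 of low glucose, without any 1 high-glucose library or with no low-count filter (edgeR adjusted p 0.055 to 0.13).

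Of 8 further proteins reported to bind m6A, 6 were tested, 2 were higher and none was lower, with a median log2FC of 0.32. *Prrc2a*, a reader known from mouse oligodendrocytes, had 81.6, 83.7 and 81.5 CPM in low and 141, 118 and 117 CPM in high glucose (log2FC = 0.61, SE 0.093, edgeR adjusted p = 4.1e-05). *Hnrnpc*, a nuclear protein that binds RNA opened by the mark, rose from 223 ± 23.9 to 284 ± 15.8 CPM (n = 3 each, SD; log2FC = 0.35, SE 0.077, edgeR adjusted p = 0.0021). The libraries of both genes were separated by condition. *Igf2bp1* and *Igf2bp3*, fetal mRNA-binding proteins, had at most 6 counts in any library and were not tested.

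Among 7 proteins that readers work with, 2 were higher and none was lower (median log2FC 0.20). The helicase *Upf1*, which acts in mRNA decay, rose from 108 ± 5.03 to 153 ± 9.87 CPM (n = 3 each, SD; log2FC = 0.51, SE 0.083, edgeR adjusted p = 9.3e-05), and *Nxf1*, the export receptor of mRNA, from 55.8 ± 7.06 to 81.1 ± 9.31 CPM (n = 3 each, SD; log2FC = 0.54, SE 0.12, edgeR adjusted p = 0.0015). *Cnot1*, the scaffold of the deadenylase that human YTHDF2 recruits, had a log2FC of 0.20 and did not pass (edgeR adjusted p = 0.079). On the lower side, *Srsf3* (log2FC = -0.42, edgeR adjusted p = 0.083) and *Xrn1* (log2FC = -0.23, edgeR adjusted p = 0.093) did not pass either. Of 4 genes that make S-adenosylmethionine, the methyl donor, or clear its product, *Mat2a*, the synthetase, passed with 22.4, 36.0 and 31.5 CPM in low and 47.8, 56.3 and 47.0 CPM in high glucose (log2FC = 0.74, SE 0.15, edgeR adjusted p = 0.0011). *Ahcy*, which clears the product, had the highest log2FC of the 28 pathway genes tested but did not pass (0.79, SE 0.29, edgeR adjusted p = 0.057). Its high-glucose libraries all lay above its low-glucose libraries, on 47 to 218 counts a library. The calls of *Prrc2a*, *Hnrnpc*, *Upf1*, *Nxf1* and *Mat2a* held without any 1 library (highest edgeR adjusted p 0.019).

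**Figure D3:**
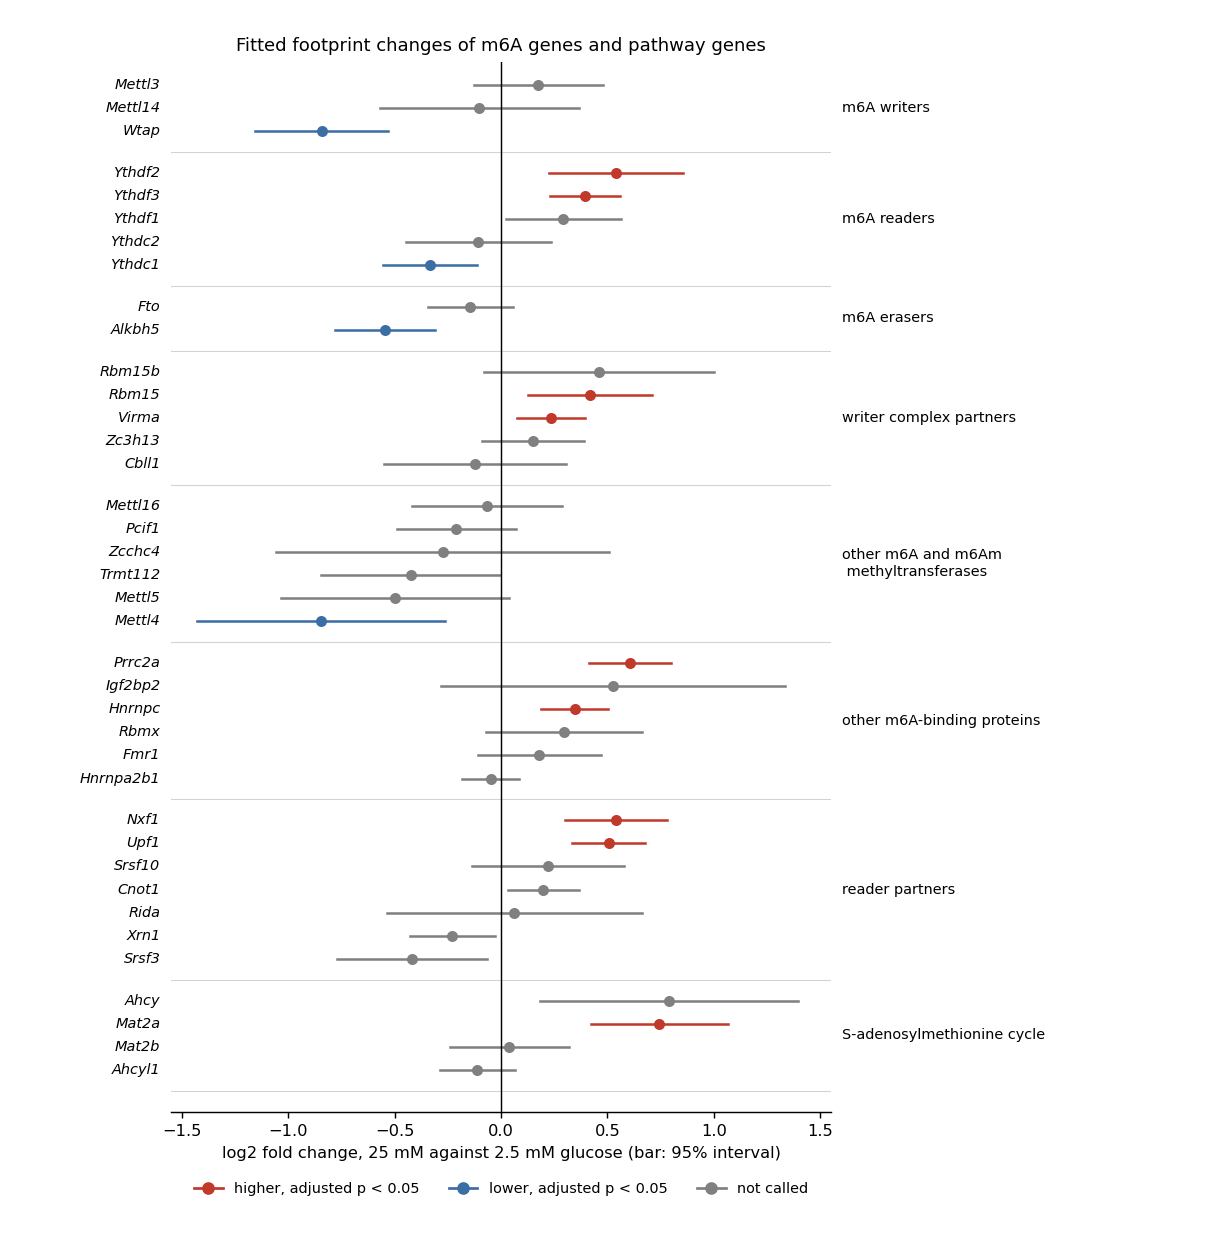
Fitted log2FC (high against low glucose, horizontal axis) with 95% interval for the 10 m6A genes and the 28 pathway genes tested, grouped by list, in red or blue where the edgeR adjusted p is under 0.05 and in grey otherwise. *Wtap* (-0.84) stands below *Mettl3* and *Mettl14* in its list, and *Ythdf1*, *Ythdf2* and *Ythdf3* lie to the right of 0 while *Ythdc1* lies to the left.

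Under 18 other settings, which left out a library or changed the tool, the scaling, the filter or the depth, log2FC ran from -0.98 to -0.69 for *Wtap*, from -0.60 to -0.50 for *Alkbh5* and from 0.35 to 0.43 for *Ythdf3*, and each of these kept an adjusted p under 0.05. *Ythdf2* (0.42 to 0.72) and *Ythdc1* (-0.41 to -0.26) kept their direction in all 18.

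**Figure D4:**
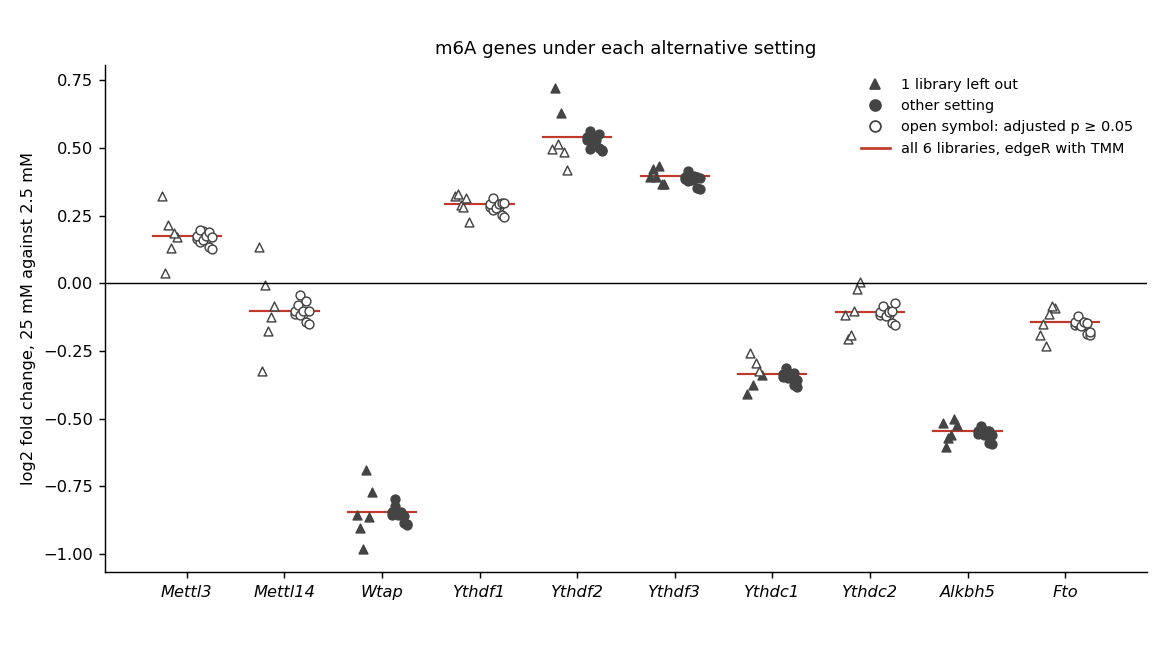
The log2FC (high against low glucose, vertical axis) of each m6A gene under 18 alternative settings, as triangles where 1 library was left out and as circles otherwise, filled where the adjusted p was under 0.05, with a red line at the value from all 6 libraries. *Wtap*, *Alkbh5* and *Ythdf3* are filled throughout, *Ythdf2* and *Ythdc1* hold open triangles, and only *Mettl14* and *Ythdc2* have symbols on both sides of 0.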

How the data were processed

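Ribo-seq was performed on mouse islets in low and high glucose, with 3 libraries per condition. The authors removed rRNA and tRNA reads, mapped reads with TopHat2 (version 2.0.12, build mm10 per the submitters' processing notes), counted them per gene with HTSeq (version 0.9.1) and compared conditions with DESeq2 (version 1.14.1). The deposited values are whole-number counts with no depth scaling. The start and end columns of the table are on other coordinates than that build, so gene positions are left out. Gene length is a deposited column with no stated basis. It replaced the coding length from RefSeq proteins that had been planned.

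The test was edgeR's (version 4.0.16, in R version 4.3.3): filterByExpr left 13100 genes, libraries were scaled by TMM, and the quasi-likelihood F test compared high with low glucose, called at a Benjamini-Hochberg adjusted p under 0.05 over all genes tested. Standard errors are of the fitted log2FC. Ratios of 2 genes were compared by an exact two-sided permutation test. The pipeline was tested on simulated data. Errors rest on 3 libraries per condition. The islets of a mouse went to both conditions, but the main fit and the permutation test took the libraries as unpaired. The 10 genes, the lists and the ratios were chosen with earlier results of these data known. Named genes are the 10 members and, of each pathway list, those at an adjusted p under 0.05, with genes of other values named as such. Alternatives were DESeq2 (version 1.42.0) without and with betaPrior = TRUE, limma-voom (limma version 3.58.1), other scalings (size factors of DESeq2, upper quartile, totals alone, TMM leaving out hormone genes), other filters (none, or 10 counts or more per library), robust dispersion, a replicate block, the study's threshold and each library left out. Thinning to the smallest total was added after the data had been seen. Figures were drawn with matplotlib (version 3.10.9). RNA-seq and protein data of the study are not analysed here.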

Additional observations from a re-analysis of the deposited data

How the results depend on the processing

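The calls of *Wtap*, *Alkbh5* and *Ythdf3* passed at an adjusted p under 0.05 under every alternative tool, scaling, filter and left-out library, and no scaling turned the direction of any m6A gene. Leaving out 1 library in turn gave 1 to 2 m6A genes higher and 2 to 3 lower, 5 to 6 pathway genes higher and 0 to 1 lower, a log2FC of 0.42 to 0.72 for *Ythdf2*, -0.41 to -0.26 for *Ythdc1*, -0.32 to 0.13 for *Mettl14* (above 0 without low-glucose replicate 2) and -0.20 to 0.0062 for *Ythdc2* (above 0 without low-glucose replicate 1). The study's rule (change beyond 1.5-fold, p under 0.05 before adjustment) was applied to edgeR's values, where the study used DESeq2. Under it, *Ythdf2* (0.54), *Ythdf3* (0.39), *Ythdc1* (-0.33) and *Alkbh5* (-0.55) no longer passed, since each changed by less than 1.5-fold. That left 0 m6A genes higher and 1 lower, and 3 pathway genes higher (*Prrc2a*, *Mat2a* and *Ahcy*). Over all genes tested it left 865 higher and 1124 lower, against 1579 and 1333. Upper-quartile factors, library totals only, at least 10 counts in every library and the replicate block each gave 2 pathway genes lower. The cause was not tested. Thinning to the smallest total, chosen after seeing the data, ended the call of *Rbm15* (edgeR adjusted p = 0.060).

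Deviations of same-numbered libraries from their group means had correlations of 0.0068 to 0.011, and each library correlated best with its own number. Genes of few counts weigh as much as others in these values, which therefore cannot show that pairing is absent. With the replicate number as a block, 1561 genes were higher and 1308 lower, *Rbm15* lost its call (edgeR adjusted p = 0.050), and the m6A genes kept theirs (*Wtap* -0.86, *Ythdf2* 0.55, *Ythdf3* 0.39, *Ythdc1* -0.33 and *Alkbh5* -0.55). Paired by number, *Wtap*/*Mettl3* changed by -1.05 and *Fto*/*Alkbh5* by 0.40 on the log2 scale. Depth limits *Mettl14*, with 142 counts in its smallest library, more than *Ythdf3*, with 1119.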
